A study of Mus musculus with 6 samples.

Results

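The comparison described here asks how RNA levels in mouse embryonic stem cells given vitamin D3 differ when MM-401 is given with it. VD3 is 1α,25-dihydroxyvitamin D3, the active hormone made from vitamin D, and MM-401 is an inhibitor of the histone methyltransferase MLL1. It uses the 2 libraries labelled VD3 (1 µM for 5 days) and the 2 labelled VD3 and MM-401 (1 µM and 100 µM for 5 days), 4 of the 6 libraries of the series. Values of the 2 untreated libraries, whose culture time the labels do not give, are set beside them. All 3 groups share the genotype Mll1 fl/fl with Cre-ER TM, the C57BL/6J strain and growth with LIF on fibroblast feeder cells. The labels mention no tamoxifen, and no group received MM-401 alone, so what MM-401 does without VD3 was not measured. The deposited tables hold 1 pooled column per group in place of the libraries, so every difference below is between 2 pools, has no replicate check and carries no p-value. The column taken as VD3 plus MM-401 has a name with a number that the labels do not explain, and another meaning of it would change every difference given here. The labels give serum or serum replacement for maintenance without saying which was used for the untreated libraries, and serum for both treatments, so VD3 and a difference in medium cannot be told apart where untreated values are set beside treated ones. Of 49377 gene names in the tables, 10717 reached 5 FPKM (fragments per kilobase of transcript, scaled to sequencing depth) in the higher pool and were compared, 8634 of them protein-coding.

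MLL1, encoded by Kmt2a, methylates lysine 4 of histone H3 at promoters. It works in a complex with WDR5, RBBP5, ASH2L and DPY30, and MM-401 blocks the contact between MLL1 and WDR5. Related enzymes (MLL2 to MLL4, SET1A and SET1B) share the same core subunits. VD3 acts through the vitamin D receptor, a nuclear receptor that binds DNA as a partner of the retinoid X receptors, and the gene of the enzyme that degrades VD3, Cyp24a1, is its classical target. In embryonic stem cells LIF and STAT3 uphold the naive state, while FGF and ERK signalling opens the way to lineage choice.

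Both treated pools showed embryonic stem cell markers: 9 of 9 markers found were at or above 1 FPKM in each pool, and their summed level was 3472 FPKM with VD3 and 3372 with both agents. Of 14 fibroblast markers, 8 (Col1a1, Col1a2, Dcn, Lum, Pdgfrb, Postn, Prrx1 and Twist2) were below 1 FPKM in both pools, and the list summed to 375 and 298 FPKM. Primitive endoderm markers summed to 10.03 and 7.98 FPKM, trophectoderm markers to 28.3 and 17.1, and macrophage or endothelial markers to 13.8 and 12.2. Fewer cells of a type and less RNA per cell cannot be told apart in such pools. The VD3 pool and the pool with both agents held total counts of 73636342 and 73499639, and the scaling factor between them was 1.001. In the authors' model the median locus had a standard deviation of 17.5% and 18.3%, which gives a single gene's log2 difference a standard deviation of about 0.358.

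FPKM and estimated counts are 2 readings of the same fragments, and they were compared throughout because FPKM depends on transcript length as well as on the fragments counted. The FPKM difference is the log2 ratio of FPKM + 1, and the count difference is the log2 ratio of counts + 1 after scaling by the median ratio of 1.001. Both are given as VD3 plus MM-401 over VD3. A gene was called where the difference reached 2-fold and the intervals of both pools lay apart, using the authors' confidence bounds for FPKM and 2 standard deviations on each side for counts. By FPKM, 89 names were called higher (0.83% of those compared) and 58 lower (0.541%). By count, 65 were higher (0.607%) and 11 lower (0.103%), and 43 and 11 names were called on both scales. Among protein-coding genes, 30 were higher (0.347%) and 10 lower (0.116%) by FPKM, 37 higher (0.429%) and 0 lower (0%) by count, and 21 were higher on both scales. No test stands behind these numbers of genes, and the intervals come from the authors' modelling of single pools. With shares this small, 0 called in any of the gene lists below is near the share over all genes.

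**Figure D1:**
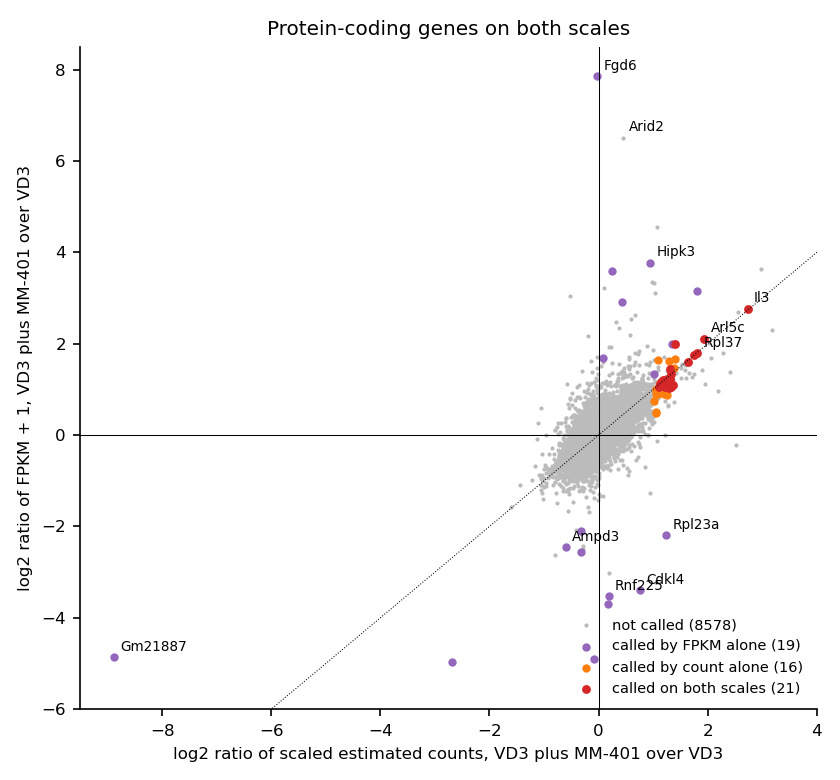
Difference of each protein-coding gene by estimated count (horizontal) and by FPKM (vertical), both log2, VD3 plus MM-401 over VD3, for 8634 genes. The dotted line marks equal differences. The 21 genes called on both scales lie at the upper right near the line, while Fgd6, Arid2, Hipk3, Rnf225, Cdkl4 and Rpl23a lie far from it.

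The promoter stretches below belong to genes called higher on both scales. They are shown to let a reader see what lies upstream of these start sites. RefSeq (GRCm38.p6, the sequence of mm10) gave a promoter for 6927 of the 8634 protein-coding genes, including 15 of those 21. In 9 of the 15, the 150 bases before the start held at most 30 bases of annotated exon, and the 5 of these with a searched motif are printed, 5′ to 3′ on the gene's strand. Capitals mark CCGGAAGT, a motif of ETS family factors, and CCAAT, the motif of NFY, on either strand (the latter reads ATTGG on the other strand).
Rpl37 (chr15:5116463-5116612, plus strand): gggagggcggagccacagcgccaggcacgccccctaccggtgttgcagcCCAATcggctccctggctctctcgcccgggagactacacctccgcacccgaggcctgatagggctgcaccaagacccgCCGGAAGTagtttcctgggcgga
Pet100 (chr8:3621401-3621550, plus strand): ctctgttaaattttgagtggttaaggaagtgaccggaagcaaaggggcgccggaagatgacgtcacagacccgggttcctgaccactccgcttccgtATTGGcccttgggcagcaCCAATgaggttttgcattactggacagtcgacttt
Rlim (chrX:103981286-103981435, minus strand): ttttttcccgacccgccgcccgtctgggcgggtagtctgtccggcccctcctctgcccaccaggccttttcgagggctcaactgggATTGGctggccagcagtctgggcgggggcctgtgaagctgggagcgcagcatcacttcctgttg
Sms (chrX:157492288-157492437, minus strand): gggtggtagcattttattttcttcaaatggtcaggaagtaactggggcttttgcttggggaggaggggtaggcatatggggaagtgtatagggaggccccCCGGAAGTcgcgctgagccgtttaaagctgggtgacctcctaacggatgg
Tmem263 (chr10:85102477-85102626, plus strand): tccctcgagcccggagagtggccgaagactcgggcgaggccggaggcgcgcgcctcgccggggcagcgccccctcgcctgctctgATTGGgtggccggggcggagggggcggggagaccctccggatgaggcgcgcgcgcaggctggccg

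Over the 250 bases upstream, both strands searched, CCGGAAGT stood in 7.03% of the 6927 promoters and in 3 of the 15 genes higher on both scales. It was present in 8 of 58 promoters of cytosolic ribosomal proteins, 8 of 63 of mitochondrial ribosomal proteins, 0 of 35 of complex I and 3 of 30 of complexes II to V. CCAAT was found in 37.4% of all promoters and in 5 of the 15, and, in the same order of lists, in 15 of 58, 23 of 63, 11 of 35 and 17 of 30. GCGCATGC, the core of the NRF1 motif, was found in 5.14% of all promoters and 0 of the 15, and in 0 of 58, 8 of 63, 4 of 35 and 3 of 30. The YY1 motif AAGATGGC was in 2.31% of all promoters and 1 of the 15, and in 2 of 58, 4 of 63, 0 of 35 and 1 of 30. TATAAA was in 5.49% and 0 of the 15, and in 3 of 58, 3 of 63, 4 of 35 and 0 of 30. The promoters of the 15 genes had a median of 16 CG pairs in these 250 bases, against 17 for all.

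The genes called higher on both scales with at least 100 counts number 20. Rpl37, a protein of the large ribosomal subunit (chromosome 15, 5116645 to 5119140), was at 29.7, 43.6 and 153 FPKM without treatment, with VD3 and with both agents, a count difference of 1.81 in the last over VD3. Srp19, part of the signal recognition particle that directs secreted proteins to the endoplasmic reticulum, was at 129, 126 and 276 FPKM in the same order, with intervals of 84.4 to 169 with VD3 and 171 to 381 with both agents. Untreated and VD3 levels of both genes had overlapping intervals, and the pool with both agents stood above them. Dnajc15, a co-chaperone of mitochondrial protein import (chromosome 14, 77820681 to 77875125), was at 76.4, 88.99 and 199 FPKM, and its counts were 2898 with VD3 and 6399 with both. Prorsd1, a gene of the prolyl-tRNA synthetase associated domain family, was at 12.7, 13.1 and 31.4 FPKM. In these genes, too, the pool with both agents was the highest of the 3 and the others lay near each other. Arl5c (1.94 by count), Mrps18c (1.40), Ndufa5 (1.32), Pet100 (1.33) and Snrpe (1.26) also had their highest value with both agents. So did Rps27rt (1.75) and Rpl10-ps3 (1.64), whose names mark copies of ribosomal protein genes. Reads of such copies can be shared with the parent gene, so their values are uncertain.

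In a second set VD3 gave the lowest of the 3 values, by a larger factor below untreated than in Srp19 and Mrps18c. Rlim, a ubiquitin ligase of the X chromosome known for its role in imprinted X inactivation (chromosome X, 103957163 to 103981284), was at 27.3, 5.00 and 11.96 FPKM, with intervals of 18.2 to 36.4, 3.28 to 6.71 and 8.03 to 15.9. Gmfb, glia maturation factor beta, was at 39.7, 11.8 and 25.7 FPKM, and Gtpbp10, a GTPase of mitochondrial ribosome assembly, at 10.97, 2.88 and 6.99. In these 3 genes the untreated pool was the highest, and for Rlim the intervals of all 3 pools were apart. Fkbp3, a nuclear prolyl isomerase that binds rapamycin (chromosome 12, 65062424 to 65074007), was at 602, 309 and 723 FPKM, and Tmem263, a small membrane protein, at 7.75, 2.88 and 7.29. In both genes the untreated value lay inside the interval of the pool with both agents (425 to 1021 and 4.42 to 10.2) and above that of VD3 (199.8 to 419 and 1.57 to 4.19). Bnip3l, a mitochondrial receptor for mitophagy also known as NIX, was at 15.4, 9.60 and 22.8 FPKM. Sms, spermine synthase, was at 6.37, 3.98 and 9.28, and Lpl, lipoprotein lipase, at 3.06, 2.04 and 5.31. Any comparison of VD3 against no treatment shares the VD3 pool with the one described here, so a value of that pool that is off by chance would place a gene low in both.

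**Figure D2:**
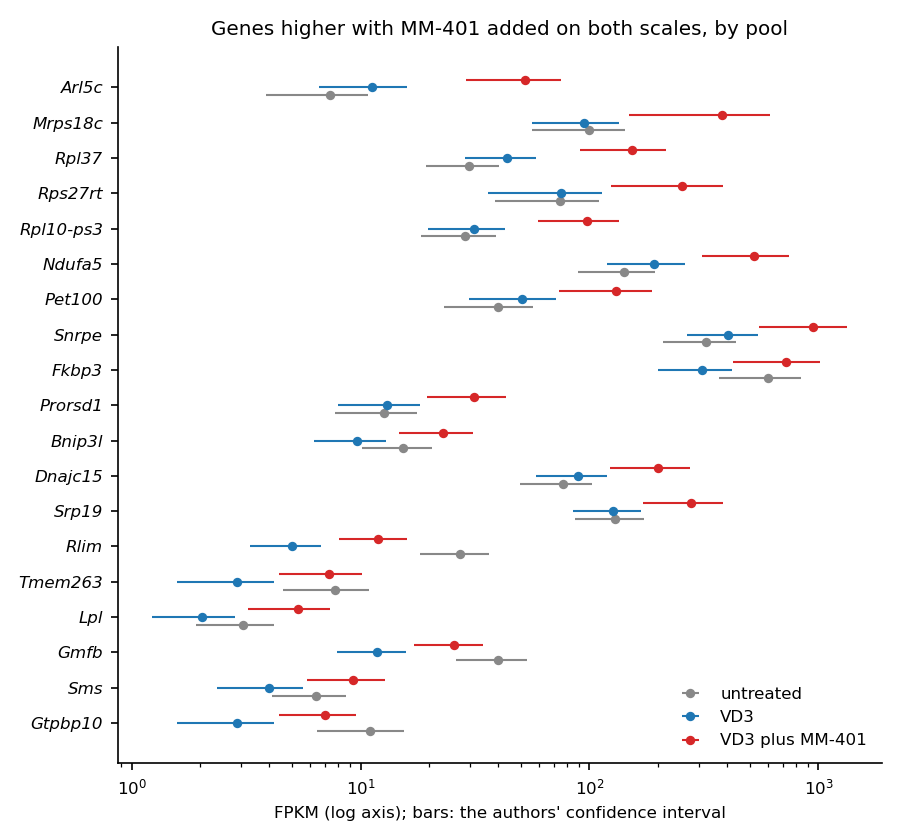
FPKM (log axis) in each pool for 19 of the 20 protein-coding genes of at least 100 counts called higher with MM-401 added on both scales, with the authors' confidence intervals as bars. In each gene the red interval lies above the blue one; untreated values (grey) lie near VD3 in most upper rows and near or above VD3 plus MM-401 for Rlim, Gmfb, Gtpbp10 and Tmem263.

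Estimated counts alone called a further 16 protein-coding genes higher, whose FPKM intervals overlapped or whose FPKM difference stayed under 2-fold. They include Mdm4, an inhibitor of p53, at counts of 11484 untreated, 1943 with VD3 and 4255 with both agents. Sox11, a transcription factor of neural progenitors, had 3648, 2464 and 5126 counts. Cox7c, a subunit of cytochrome c oxidase, had 410.2, 320.2 and 843. Mrpl1, a protein of the mitochondrial ribosome, had 4044, 2173 and 5015, and Chchd7, a small protein of the mitochondrial intermembrane space, 798, 1031 and 2461. The pool with both agents was above VD3 in each of these 5 genes, and above untreated cells, in unscaled counts, in all of them but Mdm4. Ptges3, the HSP90 co-chaperone p23, had 8586, 5934 and 13556 counts, and Cox6b2, a testis form of a cytochrome c oxidase subunit, 3145, 5232 and 10926.

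Several large FPKM differences were not seen in the counts. Fgd6, an exchange factor of the GTPase CDC42, was listed at 4.43 FPKM with VD3 and 1264 with both agents, from counts of 602 and 594. Arid2, a subunit of the PBAF chromatin remodelling complex, stood at 14.4 and 1406 FPKM, the latter with an interval of 0 to 7414, and its count difference was 0.44. Rbm27, an RNA-binding protein, was at 12.6 and 163 FPKM and 0.25 by count. Myb, a transcription factor of progenitor cells, was at 1.83 and 8.09 FPKM and 0.08 by count. Hipk3, a protein kinase, was at 2.02 and 40.5 FPKM with a count difference of 0.95, and Ror1, a Wnt receptor, at 0.527 and 10.6 FPKM with 0.43. Pdcd5, linked to programmed cell death, and Smim10l1 were called by FPKM (1.18 and 1.34) and were just over 2-fold by count (1.16 and 1.01) with overlapping intervals, and Fam71e1 was at 1.35 by count. Of the 28 protein-coding genes called higher by FPKM with at least 100 counts, 27 had the same sign by count, 23 were 2-fold and 20 were called. Over all 8634 protein-coding genes the 2 differences were a median of 0.114 apart, and in 132 they were at least 1 apart.

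Genes with the greatest FPKM difference in units of the authors' standard deviation, among those of at least 20 FPKM, mostly had very wide intervals. Of the 10 named in the higher direction, 9 had a lower bound of 0 in a pool and 3 were 2-fold by count: Itgav, the integrin alpha V subunit (1.02), Sptssa, a small subunit of serine palmitoyltransferase (1.07), and Rps12, a ribosomal protein (1.03). The others were Ncapg, of condensin (0.56 by count), Ints8, of the Integrator complex (0.68), Tlcd1 (0.10), Rnf19a (0.33), Hipk3, Rbm27 and Arid2. In the lower direction, 7 of 10 had such a bound and 0 were 2-fold by count. These were Zfand2a (-0.66), Ambra1, a regulator of autophagy (-0.60), Gnpda1 (-0.55), Bahcc1 (-0.40), Tgfbr3 (-0.33), the circadian genes Tef (-0.27) and Cry1 (-0.23), Ctdsp2 (-0.19), Cdk9, the kinase of transcription elongation (-0.16), and Asap1 (-0.11). Intervals were apart for 2 genes of the higher set and 1 of the lower.

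No protein-coding gene was called lower on both scales. Of the 7 called lower by FPKM with at least 100 counts, 4 had the same sign by count and 1 was 2-fold. That one was Gm21887, a predicted gene listed at 0, 472 and 0 counts without treatment, with VD3 and with both agents, so it was listed above 0 in the VD3 pool alone. Ampd3, an AMP deaminase, was at 10.5 and 1.11 FPKM and -0.61 by count. Man1c1, a mannosidase of the Golgi, was at 13.4 and 2.34 FPKM and -0.33, and Tgfbr3, a co-receptor for TGF-beta, at 31.3 and 4.45 FPKM and -0.33. Counts went the other way for Rpl23a, a ribosomal protein (-2.19 by FPKM and 1.24 by count), Cdkl4, a kinase (-3.39 and 0.77), and Rnf225 (-3.53 and 0.19). The higher gene Fgd6 also changed sign, with -0.02 by count.

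Nuclear genes of the respiratory chain were higher with MM-401 added across most of the list. Of 40 expressed genes of complex I, which passes electrons from NADH to ubiquinone, 38 had a positive FPKM difference, with a median of 0.59 by FPKM and 0.59 by count. Over all expressed protein-coding names (10921), the medians were 0.01 and 0.00, and 51.3% lay above 0. Only Ndufa5 was called, at 141, 191 and 525 FPKM untreated, with VD3 and with both agents. Ndufa2, another accessory subunit, was at 97.2, 159.96 and 333 FPKM, and Ndufc1 at 159, 231 and 469. Ndufa9, at 82.05, 139 and 134, stood at the low end. Most members of the list were higher by less than 2-fold, and only Ndufa5 had intervals apart.

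Complexes II to V, which include cytochrome c oxidase and ATP synthase, had medians of 0.61 and 0.61, with 40 of 43 genes above 0 by FPKM and 36 by count. Pet100, an assembly factor of cytochrome c oxidase, was called on both scales, and Cox7c by count. Usmg5, a small ATP synthase component, was at 2.11, 1.78 and 8.70 FPKM (2.28 by count), and Cox7c at 15.6, 12.4 and 35.9. Catalytic subunits of ATP synthase and of complex II were on either side of 0 by scale: Atp5b, the catalytic beta subunit, was at 0.62 by FPKM and -0.10 by count, and Sdha at 0.43 and -0.28. The lowest were Uqcrc2, a core protein of complex III (243, 394 and 261 FPKM), and Sdhc, a membrane anchor of complex II (203, 338 and 299.6). Small proteins of mitochondrial import and the intermembrane space had 27 of 28 members above 0, with medians of 0.40 and 0.49. Tomm7, of the outer membrane translocase, was at 100.4, 129 and 311 FPKM and Chchd7 at 33.5, 60.01 and 141, while the receptor Tomm20 was at 291, 392 and 370.4 and Timm50, of the inner membrane translocase, at 89.4, 154 and 159. The mitochondrially encoded genes were not analysed here.

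Ribosomal protein genes differed in the same direction, and by less when set against genes of like length (0.12 by FPKM and 0.14 by count for the cytosolic list). Of 78 cytosolic members, 64 were above 0 by FPKM and 67 by count, with medians of 0.45 and 0.44. Rpl37 was the 1 gene called on both scales, and Rpl23a was called lower by FPKM alone. Rps25, of the small subunit, was at 11.3, 12.7 and 171 FPKM with a count difference of 2.98, and its intervals overlapped. Rps12 was at 353, 61.7 and 545 FPKM, and Rpl10, of the large subunit, was at 22.3, 41.1 and 24.2 with 0.35 by count. Many of these genes have near-identical pseudogenes that can take part of their reads, so single members are uncertain. Mitochondrial ribosomal proteins had medians of 0.36 and 0.34, with 59 of 76 above 0 by FPKM. Mrps18c was at 99.8, 94.9 and 381 FPKM and Mrps22, of the small subunit, at 136, 212 and 565 (0.44 by count). Mrps5 was at 136, 203 and 116 and Mrps18b, a paralog of Mrps18c, at 179, 319.8 and 215. The paralogs thus lay at opposite ends of the list.

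Sm and LSm proteins, which form the core of spliceosomal particles, had medians of 0.36 and 0.42, with 21 of 28 above 0. Snrpe was at 323, 404 and 944 FPKM and Lsm5 at 3.43, 6.84 and 17.8, while Sf3b4 was at 36.8, 58.3 and 37.9 and Snrnp70 at 994, 1444 and 1157. Proteasome genes were nearer the middle, with medians of 0.25 and 0.26 and 27 of 33 above 0, and 0 called. Against genes of like length the proteasome medians were 0.13 and 0.14. Psma3, a subunit of the core particle, was at 14.01, 10.2 and 20.8 FPKM and Psmb4 at 883, 1425 and 2528, whereas Psmc3, an ATPase of the cap, was at 443, 866 and 672 and Psmd3 at 157, 237 and 184.

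**Figure D3:**
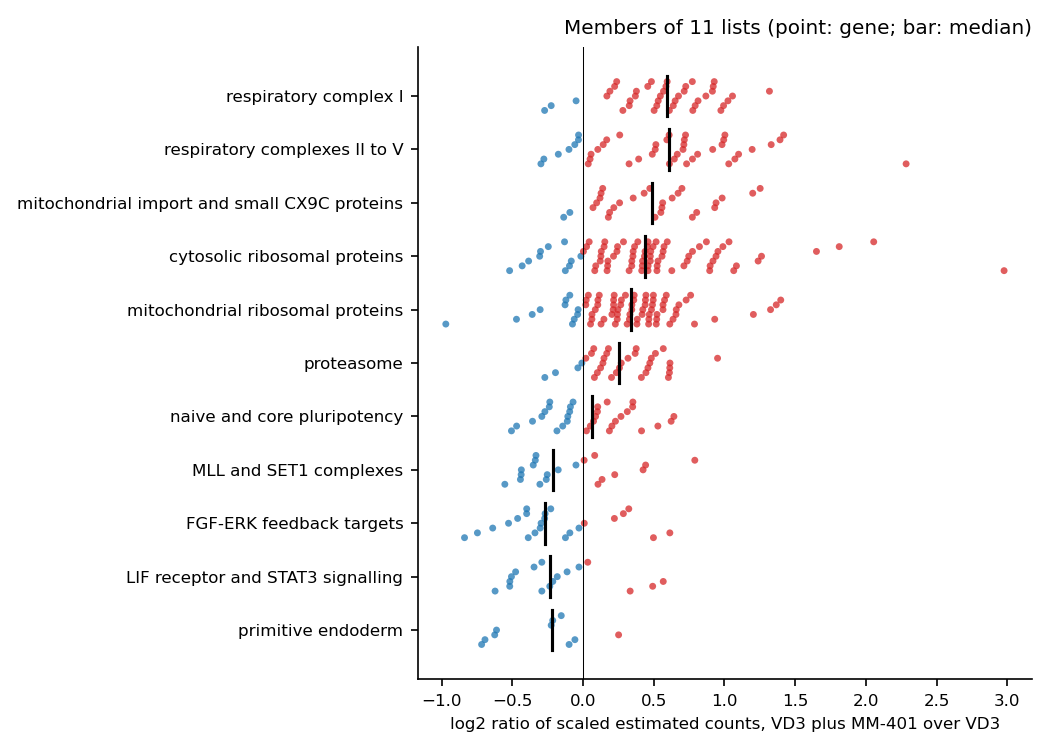
Count difference (log2, VD3 plus MM-401 over VD3) of each expressed member of 11 lists, with the list's median as a bar, red above 0 and blue below. Respiratory, ribosomal and import genes lie mostly to the right, whereas FGF-ERK, LIF and primitive endoderm genes lie mostly to the left, and few points in any list pass 1.

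None of the genes of the inhibitor's own complex was called, against 0.347% higher and 0.116% lower by FPKM over all protein-coding genes. In a list of 20 genes, 0 called is near that share. Kmt2a was at 14.9, 11.6 and 17.03 FPKM. The interval of the value with both agents reached from 0 to 41.3, and the counts with VD3 and with both agents were 7055 and 7749.6. Wdr5, the subunit whose contact with MLL1 the inhibitor blocks (chromosome 2, 27515157 to 27536535), was at 109.6, 199.98 and 142 FPKM (125 to 275 with VD3 and 86.4 to 198 with both), a difference of -0.49 by FPKM and -0.44 by count. Ash2l was at 192, 249.9 and 208 FPKM and Dpy30 at 282, 418 and 569.9. Intervals of these genes overlapped between the treated pools. Kmt2b, the gene of the closest relative of MLL1, was at 40.5, 57.3 and 34.9 FPKM, Kmt2c at 9.41, 5.02 and 5.72 and Kmt2d at 8.07, 13.2 and 7.64. Setd1b, a SET1 enzyme, was at 8.60, 9.28 and 9.50, and Men1, which tethers MLL1 and MLL2 to chromatin, at 57.2, 90.9 and 91.3. Setd1a and Rbbp5 share a locus with another protein-coding gene in the tables and were not analysed here. Psip1, a chromatin tether of the menin complex, was the highest member, at 256, 123 and 285 FPKM and 0.79 by count. The list of 20 genes had a median of -0.01 by FPKM and -0.21 by count, with 0 called.

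HOX genes, which depend on MLL1 in blood cells, were mostly below 1 FPKM. Of 33 HOX and partner genes found, 9 were at or above 1 FPKM on average, and their medians were 0.01 and 0.05. Hoxb9 was at 73.3, 23.2 and 28.6 FPKM, and the HOX partners Meis1 and Pbx3 at 4.70, 7.47 and 4.97 and 8.75, 13.7 and 10.6. Polycomb genes, whose products oppose MLL proteins at many promoters, had medians of -0.04 and 0.07 with 0 of 27 called. Ezh2, the H3K27 methyltransferase, was at 158, 160.4 and 278 FPKM but only 0.18 by count, Pcgf1 at 10.4, 13.9 and 25.01 (0.61), Jarid2 at 309, 306 and 160.3 (-0.37) and Kdm2b at 99.3, 166 and 88.7 (-0.76).

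The vitamin D receptor and its classical target were weakly expressed. Vdr was at 0.556, 0.701 and 0.370 FPKM, below the 5 FPKM needed for a comparison, from 126 and 97.4 counts in the treated pools. Cyp24a1 was at 0.0662, 0.129 and 0.0719 FPKM, from 30.6 and 17.02 counts. Rxra, the receptor's partner, was at 6.81, 14.9 and 7.08 FPKM, with intervals of 6.02 to 23.8 with VD3 and 2.32 to 11.8 with both agents, which overlapped. Its untreated level was thus close to that with both agents. Camp, an antimicrobial peptide gene that is a vitamin D target in human cells, was at 28.6, 50.7 and 69.4 and Lrp5, a Wnt co-receptor, at 20.8, 24.1 and 16.3. The most abundant members were Pdia3, a protein disulfide isomerase, at 419, 521 and 555 FPKM and Spp1, osteopontin, at 435, 424 and 499.8. The list had medians of -0.01 and 0.08 over 18 genes, with 0 called.

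Pluripotency genes as a list stayed near 0, with 18 of 32 above it, medians of 0.02 and 0.06, and 0 called. At the ends were Tet2, a DNA demethylase (27.5, 7.98 and 15.4 FPKM), Dppa3, a naive-state gene (0.66 by FPKM and 0.62 by count), Tfcp2l1, a naive transcription factor (128, 228 and 127), and Stat3 (53.5, 77.7 and 43.4). Of 17 expressed genes of the formative and primed states, 2 were above 0, with medians of -0.17 and -0.23. Those above 0 were Otx2 (0.52) and Tcf15 (167, 364 and 498 FPKM). Etv5, an ETS factor downstream of FGF, was at 66.3, 108 and 85.9 FPKM, and Dnmt3b, a de novo DNA methyltransferase, at 101, 138 and 109.8.

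Signalling lists around the stem cell state stood lower. Some lists share members, so their medians are not separate observations. The FGF-ERK list shares Dusp6, Etv4 and Etv5 with the formative list and Ccnd1 and Myc with the Wnt list. Lef1 is in both the formative and the Wnt list. In the LIF and STAT3 list 5 of 17 genes were above 0, with medians of -0.33 by FPKM and -0.24 by count. Socs3, the feedback inhibitor of STAT3, was at 94.5, 143 and 83.9 FPKM but -0.18 by count. Ptpn11, the phosphatase SHP2, was at 28.8, 46.8 and 27.9 FPKM and -0.62 by count, and Il6st, the receptor subunit gp130, at 103, 84.3 and 56.8 and -0.52. Socs2 was at 42.3, 49.3 and 65.4 and the receptor gene Lifr at 4.92, 3.34 and 4.66, higher with both agents than with VD3. Among FGF-ERK feedback targets, 5 of 23 were above 0, with medians of -0.22 and -0.27. Il17rd, an FGF inhibitor also called Sef, was at 8.02, 11.04 and 6.86 FPKM and Emp1 at 10.9, 19.3 and 12.9. Spry4, an inhibitor of the pathway, was at 33.1, 47.6 and 36.1, and Dusp6, an ERK phosphatase, at 85.5, 149 and 133. Ier3 (0.58 by FPKM) and Spred1 (0.47) were at the other end. None of the members was called in either list, and each had overlapping intervals. Targets of TGF-beta, Nodal and BMP had a median of 0.00 on each scale, with Smad3 at 13.5, 16.4 and 8.23 and Id1 at 45.5, 119 and 128 FPKM.

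Among lineage lists, those of the extraembryonic lineages stood lower with both agents. The primitive endoderm, trophectoderm and fibroblast lists here are longer than the marker sets of the same names summed earlier. All 10 expressed primitive endoderm genes had a negative FPKM difference, with a median of -0.38, while by count 1 was above 0 and the median was -0.22. The list holds extracellular matrix genes that fibroblasts also express: Col4a1, a basement membrane collagen, was at 35.1, 41.96 and 22.8 FPKM, Lamc1, a laminin chain, at 157, 203 and 146, and Sparc at 394, 575 and 471. The endoderm factor Gata4 was at 2.01, 2.44 and 1.43, and Sox17, Gata6 and Foxa2 were below 1 FPKM in both treated pools. Trophectoderm genes had 3 of 16 members above 0 and medians of -0.24 and -0.25 (-0.15 by FPKM at 5 FPKM or more), with Krt7, a keratin, at 12.1, 18.4 and 8.67 FPKM and Tfap2c, a trophoblast and germ cell factor, at 23.8, 18.1 and 25.5. Fibroblast markers had medians of -0.14 and -0.21 over 15 genes. The 8 protein-coding members of at least 5 FPKM had 0.10 and 0.00 less the median for genes of like length and GC content. The 25 members found, of a longer list than the 14 markers above, summed to 978 FPKM with VD3 and 979 with both agents. They include Tagln at 105, 190.04 and 116 and S100a6 at 83.8, 213 and 287 FPKM. Their part in the lower matrix genes was not tested. Neural and mesodermal lists had medians of 0.06 and 0.08 by FPKM. Of the 2-cell-like genes, 0 reached 1 FPKM on average.

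**Figure D4:**
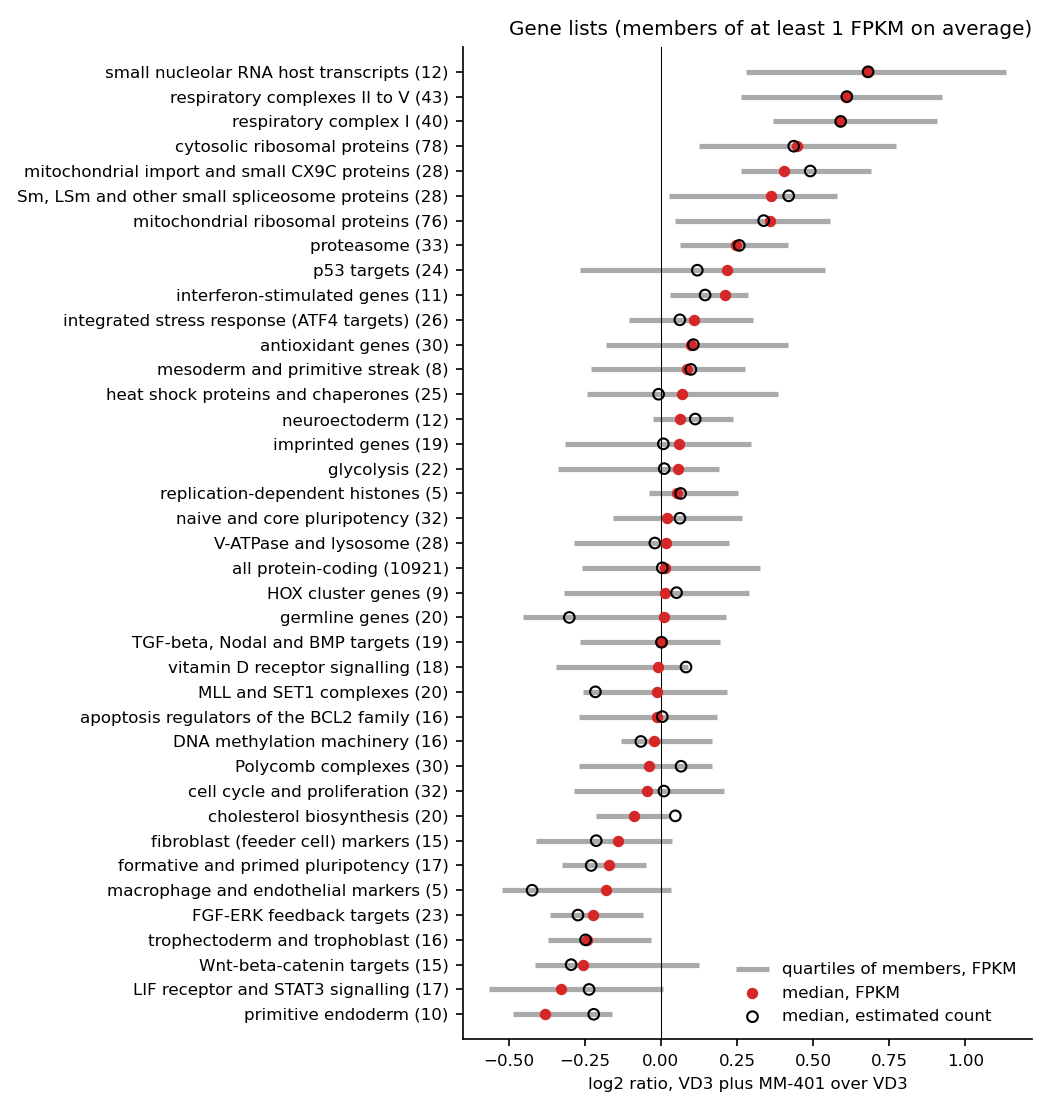
Median difference (log2, VD3 plus MM-401 over VD3) of each list with at least 5 expressed genes, by FPKM (red) and by estimated count (open circle), with the quartiles of the members as a grey bar and the number of members in brackets. Host transcripts of small nucleolar RNAs, the respiratory chain, ribosomal and import lists lie highest by FPKM and primitive endoderm, LIF and Wnt lists lowest, macrophage and endothelial markers are lowest by count (-0.42), while all protein-coding genes lie at 0.01.

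Growth, stress and cell death lists had FPKM medians between -0.09 and 0.22. p53 targets had medians of 0.22 and 0.12, and by FPKM 0.07 among members of at least 5 FPKM and 0.03 against genes of like length, with Mdm4 called by count, Ccng1, cyclin G1, at 109.96, 46.6 and 85.5 FPKM, Trp53inp1 at 73.9, 9.31 and 17.7 and Aen, a nuclease, at 133, 196 and 139. Of the BCL2 family, Bnip3l was called on both scales, and Bmf, a cell death activator, was at 14.1, 15.00 and 7.93 FPKM. The cell cycle list had a median of -0.04 by FPKM and 0.01 by count, with Rb1, the retinoblastoma gene, at 50.5, 36.3 and 75.2 and Mcm2, a subunit of the replicative helicase, at 295, 402 and 274. ATF4 targets had medians of 0.11 and 0.06, with Ddit3, the stress factor CHOP, at 24.6, 34.7 and 57.8 FPKM. Among antioxidant genes Txn1, thioredoxin, was at 371, 392 and 881 FPKM with 1.16 by count, while Gclm, of glutathione synthesis, was at 207, 255 and 167. Cholesterol synthesis genes had medians of -0.09 and 0.05, and glycolysis genes 0.06 and 0.01. Hspe1, the mitochondrial chaperonin HSP10, was at 162, 247 and 491 FPKM, and Hsp90aa1 at 2733, 1328 and 701, within a chaperone list of median 0.07.

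Other lists, with 0 genes called in each, had medians by FPKM and by count of -0.25 and -0.29 for Wnt-beta-catenin targets and -0.02 and -0.07 for DNA methylation genes. Imprinted genes had 0.06 and 0.01, interferon-stimulated genes 0.21 and 0.15, V-ATPase and lysosome genes 0.02 and -0.02, histones 0.05 and 0.07, and macrophage and endothelial markers -0.18 and -0.42. Germline genes, many of them silenced by DNA methylation in other cells, had 0.01 by FPKM and -0.30 by count. In that list Fkbp6, a factor of the piRNA pathway, was at 6.65, 19.7 and 9.63 FPKM, Hormad1, a meiotic chromosome protein, at 12.9, 7.39 and 2.90, and Syce1, of the synaptonemal complex, at 13.6, 19.3 and 36.8 (0.24 by count). Grb10, an imprinted growth inhibitor, was at 300.5, 350.2 and 227 FPKM and Uhrf1, which guides maintenance methylation, at 175, 251 and 143 (-0.27 by count).

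The difference of a gene also followed the length and GC content of its longest annotated transcript, which may not be the one expressed. Protein-coding genes were put into 10 bins by transcript length and again by GC content. In the bin of shortest transcripts (median 1052 bases) the median difference was 0.37 by FPKM and by count, and in the next 0.13 and 0.14, while it lay between -0.12 and 0.03 by FPKM in the others. In the bin lowest in GC (median 40.2%) it was 0.35 by FPKM and 0.42 by count, and 18 of the 37 genes higher by count fell there. Across the 8634 genes, which are not independent replicates, Spearman's rho with length was -0.24 by FPKM and -0.29 by count, and with GC content -0.25 and -0.35. Split into 5 length bins by 5 GC bins, the median count difference ran from 0.51 in short AT-rich transcripts to -0.42 in long transcripts of 53.55% GC. The genes higher by count had a median GC content of 42.2%, against 50.1% for all, and a median length of 3259 bases, against 3261.5. Each list was then set against genes of like length, by taking from each gene the median of its own bin among 20 length bins. Adjusted values cover only protein-coding members of at least 5 FPKM, so some lists hold fewer genes than above. They hold 7 of the 10 primitive endoderm genes, 10 of the 16 trophectoderm genes and 13 of the 17 formative genes. For LIF and STAT3 genes they hold 14 of 17, and for fibroblast markers 8 of 15. Medians by FPKM and by count became 0.41 and 0.28 for complex I, 0.29 and 0.19 for complexes II to V, 0.12 and 0.14 for cytosolic ribosomal proteins and 0.21 and 0.14 for mitochondrial ribosomal proteins. The same values were 0.22 and 0.23 for small import proteins, 0.17 and 0.26 for Sm and LSm proteins, 0.13 and 0.14 for the proteasome and 0.03 and -0.02 for p53 targets. Among the lists below 0 they became -0.18 and -0.20 for FGF-ERK targets, -0.15 and -0.19 for formative genes, -0.28 and -0.23 for LIF and STAT3 genes, -0.37 and -0.46 for primitive endoderm genes, -0.25 and -0.23 for trophectoderm genes and -0.10 and -0.21 for fibroblast markers. A further correction, chosen after seeing the data, took from each gene the median of its cell of like length and GC content. These cells came from 5 length bins by 5 GC bins, so they matched length more coarsely than the 20 length bins did. Whether GC content or the coarser length match moved a median between the corrections was not tested. Less the median of the cell, the medians were 0.38 and 0.36 for complex I and 0.34 and 0.31 for complexes II to V. They were 0.26 and 0.23 for cytosolic ribosomal proteins and 0.19 and 0.14 for mitochondrial ribosomal proteins. They were 0.25 and 0.23 for small import proteins, 0.16 and 0.21 for Sm and LSm proteins, 0.06 and 0.08 for the proteasome and 0.02 and 0.00 for p53 targets. Among the lists below 0 they were -0.10 and -0.08 for FGF-ERK targets, -0.04 and -0.06 for formative genes, -0.26 and -0.20 for LIF and STAT3 genes, -0.21 and -0.20 for primitive endoderm genes, -0.22 and -0.13 for trophectoderm genes and 0.10 and 0.00 for fibroblast markers. By FPKM complexes I to V had the highest of these medians under both corrections, and the cytosolic ribosomal list lost the most by length. By count and length, complexes II to V (0.19) stood below Sm and LSm proteins (0.26) and small import proteins (0.23). Complexes II to V also lost more by count, from 0.61 to 0.19, than the cytosolic ribosomal list, from 0.44 to 0.14. The 8 fibroblast markers had a median below 0 with the length correction and above 0 with length and GC content. The part of length and GC content in the list values was not tested beyond these numbers.

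**Figure D5:**
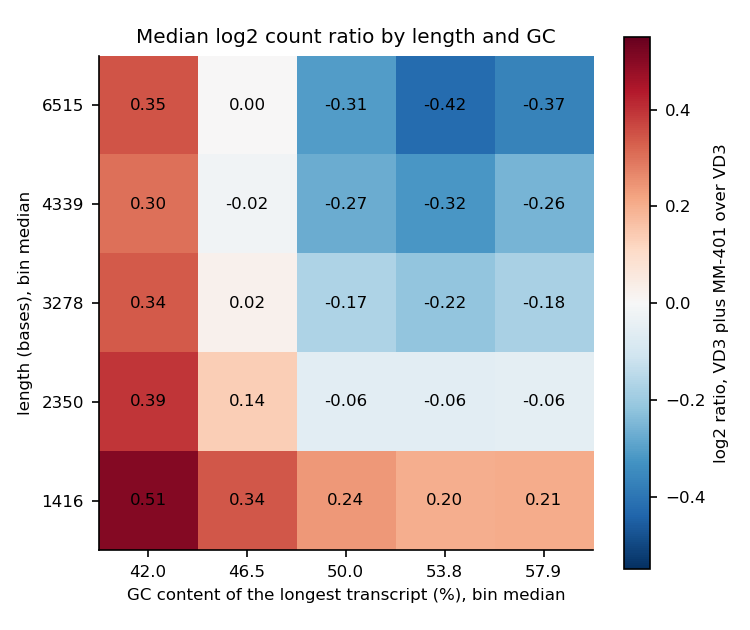
Median count difference (log2, VD3 plus MM-401 over VD3) of protein-coding genes in 5 bins of transcript length (vertical, bases) by 5 bins of GC content (horizontal, percent). The lowest GC column is positive at every length, from 0.30 to 0.51, and the most negative cell, -0.42, holds long transcripts of higher GC.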

How the data were processed

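RNA of mouse embryonic stem cells was sequenced in 6 libraries of 3 groups, prepared, per the labels' protocols, with an Illumina TruSeq kit. The tools, per the submitters' processing notes, were Cufflinks 2.2.1, TopHat2 2.1.1 and SAMtools 1.5, and the genome was mm10; their settings are not given. The authors deposited FPKM with confidence bounds, and estimated counts with variances, for 62490 loci, in 1 pooled column per group per the file headers. Whether strand was used is not stated.

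Loci sharing a gene name were summed, 14 loci without a valid status were left out, and 11771 loci without a name did not enter. A locus naming several genes went to its protein-coding gene where it had just 1. The pooled columns do not allow a test over libraries. Differences used a pseudocount of 1 and a minimum of 5 FPKM in the higher pool (a mean of 1 FPKM for list members), and the deposited estimated counts were divided by the median ratio of names above 500 counts. Biotype, length and GC content come from GENCODE vM21 (GRCm38), in which 44015 of 47899 single names were found. Length and GC content are those of the longest annotated transcript of a name. The call rule was tested on simulated data for names above 500 counts, in which FPKM and counts moved together. That simulation does not cover names of low counts or names whose FPKM and counts differ. The members, the 39 gene lists and the rule were chosen with earlier results of these data known. Named genes are protein-coding genes called with at least 100 counts and the same sign by count (the 20 largest each way), 10 each way by FPKM difference over the authors' SD, called members and the 2 highest and lowest of each list at 5 FPKM or more, and MLL1 and vitamin D receptor genes; other genes were named after their values were seen. The work used Python 3.11.15, pandas 2.3.3, numpy 2.4.6 and matplotlib 3.10.9. Some single genes are not reported here.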

Additional observations from a re-analysis of the deposited data

How the results depend on the processing

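No paired analysis was possible because the tables hold 1 pooled column per group, and leaving out single libraries was not run for the same reason. The number of genes called with MM-401 added moved from 89 higher and 58 lower to 500 and 216 without the interval condition, 51 and 21 with at least 100 counts, 30 and 10 in protein-coding genes, and 35 and 15 with pseudogenes and small RNAs left out, an alternative added after seeing the data. By scaled counts 11 were lower, and with a minimum of 1 FPKM or with no minimum 97 were lower. Under the other alternatives tried, both numbers stayed within 1.5 times. The median error of a single gene's difference at 500 counts or more (0.358) served as a margin. Of the 38 list medians, 1 moved by more than this margin under each of 2 settings. These were replication-dependent histones (0.44 among genes of at least 5 FPKM) and germline genes. The latter had -0.40, over 12 of 20 members, less the median of their length and GC cell, also added after seeing the data. That margin is wide for a median of many genes, and the cytosolic ribosomal list stayed within it while going from 0.45 to 0.12 by length. Corrections by length and GC content also cover fewer members of some lists. The sign changed in 8 lists by count, 8 by length, 8 by length and GC content and 3 at 5 FPKM, and in 0 with a pseudocount of 0.1. Of 35 protein-coding genes called by FPKM with at least 100 counts, all 35 were still called with a pseudocount of 0.1. By count, 20 were called, 11 kept their direction without a call, and 4 had the opposite sign: Rpl23a (1.24), Cdkl4 (0.77), Rnf225 (0.19) and Fgd6 (-0.022). The cause was not tested. Pooling limits every value here: the spread between libraries is unknown.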

Other observations

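Of 206 compared names annotated as long non-coding or of other remaining classes, 78.6% had a positive FPKM difference, with a median of 0.60 by FPKM and 0.59 by count, against 52.1% and 0.02 for all names. Of these 206, 2 were called higher by FPKM, 2 by count and 1 on both scales, with 0 called lower. Over all names, 0.83% were called higher by FPKM and 0.607% by count, so these numbers are near the general share. The values of this class were not set against genes of like length and GC content. Host transcripts of small nucleolar RNAs had medians of 0.68 and 0.68, with 10 of 12 above 0. Only its 5 protein-coding members of at least 5 FPKM could be set against genes of like length, with medians of 0.45 and 0.13. Snhg9 was at 9.27, 7.08 and 46.8 FPKM without treatment, with VD3 and with both agents, Snhg20 at 35.4, 79.3 and 209.7, Snhg6 at 153, 151 and 299 and Snhg8 at 49.8, 56.1 and 98.7, while Nop56, a nucleolar protein gene, was at 796, 1147 and 691. Malat1, a nuclear non-coding RNA, was at 45.3, 6.31 and 14.9 FPKM. Antisense and overlapping genes in this class cannot be told apart without strand.

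Pseudogenes took a large part of the calls. Among 989 pseudogene names, 20 were higher and 11 lower by count, against 0.607% and 0.103% of all names. These 11 are all of the names called lower by count. They include Gm12180 (4060.4 and 1965 counts with VD3 and both agents), Gm12009 (1245 and 555) and Fth-ps3, a ferritin copy (1291 and 534). Of 34 pseudogenes with ribosomal protein symbols, 32 were above 0 by count, with a median of 0.757. Reads of such copies can come from their parent genes. The 170 small or structural RNAs gave 28 higher and 26 lower calls by FPKM, against 0.83% and 0.541% of all names. Of these calls, 27 and 26 had under 100 counts in both pools.

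The X chromosome had the highest median among chromosomes with more than 1 compared protein-coding gene, 0.15 by FPKM and by count over 245 genes, followed by chromosome 13 at 0.14 and 0.12 over 295. The summed FPKM of compared protein-coding genes was 968487 with VD3 and 1301930 with both agents, at nearly equal summed counts over all loci.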
